A study of Homo sapiens with 6 samples.

Results

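The fatty acid desaturases and elongases, with their transcriptional regulator SREBF1, were followed in KPL4 cells, an established line from inflammatory breast cancer, either as controls or after CRISPR/Cas9 knockout of ESR2, which encodes estrogen receptor beta (ERβ). The list held 10 genes, chosen by their function with earlier results of these data known: FADS1, FADS2, FADS3, SCD, SCD5, ELOVL1, ELOVL5, ELOVL6, ELOVL7 and SREBF1. Each gene was read from the brightest of the probe sets whose annotation names it alone, which left 8 of the 10 genes among 33578 genes tested. FADS1 and ELOVL1 have no value here, because the only probe set of FADS1 is also annotated to the microRNA MIR1908 and that of ELOVL1 to MIR6734.

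There were 3 arrays of control KPL4 cells and 3 of ERβ knockout KPL4 cells, and total RNA was hybridised to Affymetrix arrays. All cells grew in the same serum-supplemented medium with insulin and hydrocortisone, and no treatment is recorded. Each group's arrays carry biological replicate numbers, but the labels leave unsaid whether these were separate cultures. They also do not give the clonal or pooled origin of the knockout line, or any vector that control cells carried. Each p-value below thus rests on the spread among these 6 samples, some of which may be technical.

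Long-chain fatty acids are made as saturated chains and then altered by membrane enzymes of the endoplasmic reticulum. Stearoyl-CoA desaturases (SCD, SCD5) place the first double bond and yield monounsaturated fatty acids. Of the FADS enzymes, FADS1 and FADS2 act on polyunsaturated chains. FADS2 is the delta-6 desaturase that starts the conversion of dietary linoleic and alpha-linolenic acid, and FADS1 is the delta-5 desaturase of a later step. ELOVL enzymes carry out the condensation that lengthens a chain, with ELOVL6 acting on saturated and monounsaturated and ELOVL5 on polyunsaturated substrates. SREBF1 encodes SREBP-1, a transcription factor held in the membrane and released by cleavage, which switches on many lipogenic genes.

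The arrays were alike in scale, with median log2 signals of 4.08 to 4.11 over all probe sets. Pearson's r across genes above the median brightness was 0.995 to 0.997 within groups and 0.986 to 0.988 between them, which describes the arrays only, since genes are not independent replicates. ESR2 itself was dim in both groups, at 3.95 ± 0.23 in control and 3.997 ± 0.093 in knockout cells (log2 signal, SD, n = 3), and differed by 0.05 (limma adjusted p = 0.90). The median brightness over tested genes was 5.05, above either mean, and genes below it are called dim here. A signal this dim does not check the knockout. The 7 epithelial markers were all above that median, and their mean lay between 14.20 and 14.26 on control and between 14.36 and 14.51 on knockout arrays. KRT19, a luminal keratin, was the 1 marker among them that passed the test, 2.37-fold higher in knockout cells (adjusted p = 1.0e-04). The keratins KRT8 (-0.24, adjusted p = 0.31) and KRT18 (-0.27, adjusted p = 0.27) stood the other way without passing. Without KRT19, a subset chosen after its values were seen, the epithelial mean overlapped between groups, at 14.30 to 14.35 on control and 14.29 to 14.43 on knockout arrays. The mean signal of 8 adipocyte markers lay between 4.21 and 4.27 on control and between 4.23 and 4.34 on knockout arrays. Of these 8, 0 passed and 7 were dim, ADIPOQ, PLIN1 and FABP4 among them, while LEP lay just above the median brightness at 5.09. PLIN4 differed by 0.45 with groups that did not overlap (adjusted p = 0.054). Of the fibroblast, leukocyte and endothelial markers, 0 of 16 passed. The endothelial mean lay between 4.60 and 4.67 on control and between 4.71 and 4.77 on knockout arrays, and the fibroblast and leukocyte means overlapped. The part of these shifts in the results below was not tested.

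Of the 8 measured genes, 3 were higher in knockout cells, 0 were lower and 5 did not pass the test (limma, Benjamini-Hochberg adjusted p under 0.05 over all genes). The genes that rose were FADS2, SCD and SREBF1. Among all tested genes, 8.01% were called, 4.81% higher and 3.21% lower in knockout cells. The numbers were 1614 higher and 1077 lower, against 1251 and 1306 after a repeated quantile normalization. All 8 genes lay above the median brightness, and of genes above it 14.8% were called. The arrays of the groups did not overlap for these 3 genes, as was true of 25.3% of all genes. The median log2 difference (knockout minus control) of the 8 genes was 0.36, against 0.022 over all genes tested. By role, 2 of 4 measured desaturases, 0 of 3 measured elongases and the regulator rose. These counts are too small to set the classes apart. ELOVL4, an elongase outside the list, rose 2.47-fold (limma adjusted p = 6.0e-05).

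**Figure D1:**
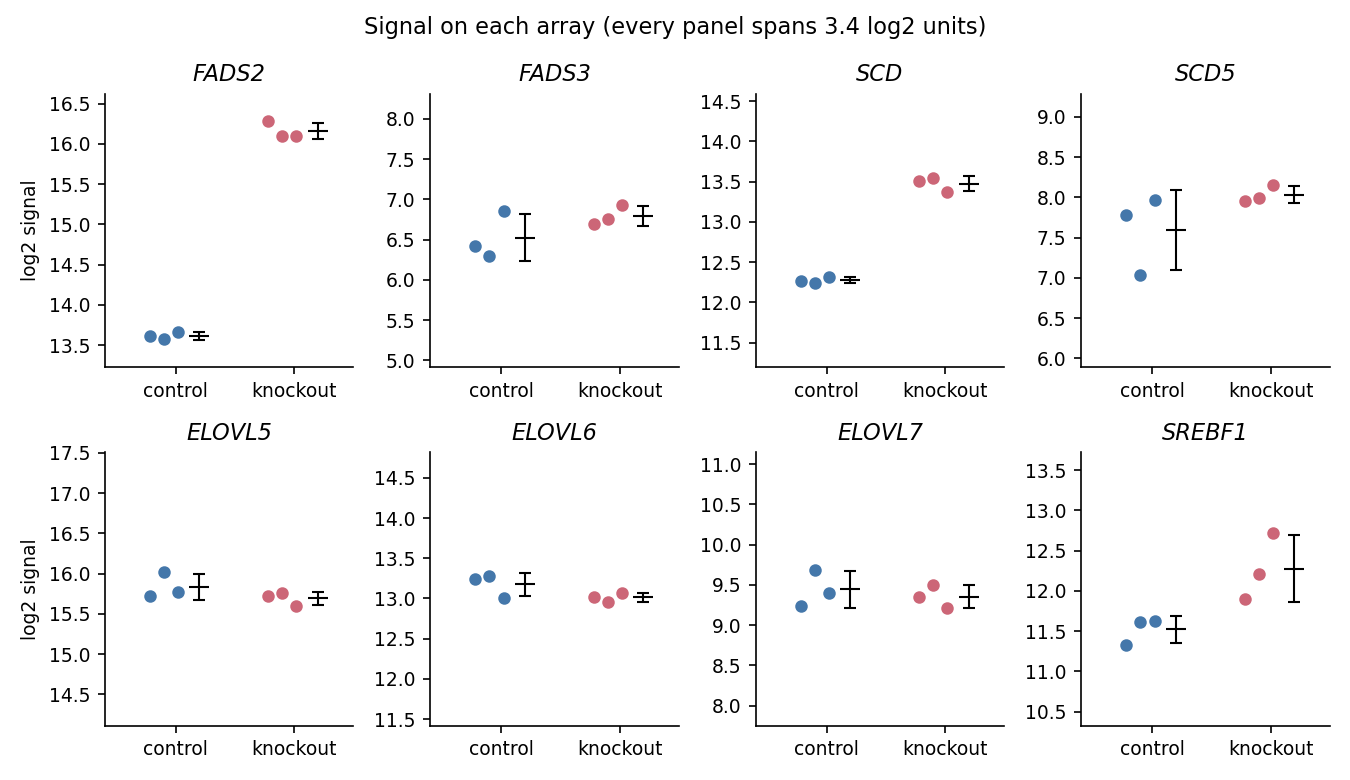
Log2 signal of the 8 measured genes on each of the 3 control (blue) and 3 knockout (red) arrays, with the mean and SD of each group in black; every panel has the same height in log2 units. FADS2 and SCD form separated, tight groups, the SREBF1 knockout arrays are spread from 11.90 to 12.72, and the points of the other 5 genes overlap.

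FADS2 rose the most. Its log2 signal in control replicates 1, 2 and 3 was 13.61, 13.57 and 13.66, and in knockout replicates 1, 2 and 3 it was 16.28, 16.10 and 16.10. Values of other genes follow the same order. Every knockout array thus lay far above every control array, and the spread within each group was small, with an SD of 0.045 in control and 0.11 in knockout cells. The log2 difference was 2.54 (SE 0.12, 95% interval 2.27 to 2.82), or 5.83-fold (adjusted p = 7.4e-07). It was the 31st largest rise among the 33578 genes. The knockout values lie just above 16, beyond a plain log2 reading of a 16-bit scanner, so the fold holds only on the deposited scale, whose top may be stretched.

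SCD, the main stearoyl-CoA desaturase of human tissues, also rose. Its log2 signal was 12.27, 12.24 and 12.32 on the control arrays and 13.51, 13.55 and 13.37 on the knockout arrays. No control array reached the lowest knockout array. The log2 difference was 1.2 (SE 0.12, 95% interval 0.93 to 1.47), or 2.30-fold (adjusted p = 0.00012). FADS2 and SCD passed under all 16 alternative settings, with log2 differences of 2.48 to 2.57 and 1.11 to 1.25.

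SREBF1 was higher as well, with more spread. Its log2 signal was 11.33, 11.61 and 11.63 on the control arrays and 11.90, 12.21 and 12.72 on the knockout arrays. The groups did not overlap, but the knockout SD of 0.41 was well above the median of 0.14 over bright genes. The log2 difference was 0.75 (SE 0.19, 95% interval 0.32 to 1.18), or 1.68-fold (adjusted p = 0.039). This call held under 6 of 16 alternatives. It was lost when control replicate 1, 2 or 3 (adjusted p = 0.13, 0.072 and 0.064) or knockout replicate 2 or 3 (adjusted p = 0.096 and 0.11) was left out. A second quantile normalization (adjusted p = 0.080) and equal array medians (adjusted p = 0.055) ended it too. Knockout array 3 was the highest of the knockout arrays for SREBF1, and also for FASN, SLC25A1 and INSIG1, 3 genes singled out after their values were seen. It was the lowest of them for SCD. Other genes peaked elsewhere: knockout array 2 was the highest for ACLY and MID1IP1, and knockout array 1 for FADS2, ACSS2 and SREBF2.

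The other desaturases did not pass. FADS3, a FADS paralog described as a sphingoid base desaturase, read 6.42, 6.30 and 6.85 on the control arrays and 6.69, 6.76 and 6.93 on the knockout arrays. Control array 3 lay among the knockout arrays. The log2 difference of 0.27 (95% interval -0.08 to 0.63, adjusted p = 0.40) leaves room for a change of up to that upper bound. It was 0.44 without control replicate 3 and 0.16 without control replicate 2. SCD5, the second human stearoyl-CoA desaturase, read 7.78, 7.03 and 7.97 on the control arrays and 7.95, 7.99 and 8.15 on the knockout arrays. Control array 2 stood low and control array 3 lay within the knockout range. Its log2 difference was 0.44 (95% interval -0.03 to 0.91, adjusted p = 0.28), and without control replicate 2 it was 0.16.

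The 3 measured elongases all had differences below 0, and 0 of 3 passed the test. ELOVL5 read 15.72, 16.02 and 15.77 on the control arrays and 15.72, 15.76 and 15.60 on the knockout arrays. Its log2 difference was -0.14 (95% interval -0.43 to 0.15, adjusted p = 0.63). ELOVL6, which lengthens palmitate, read 13.24, 13.28 and 13.01 on the control arrays and 13.02, 12.96 and 13.07 on the knockout arrays. Its log2 difference was -0.15 (95% interval -0.44 to 0.13, adjusted p = 0.58). ELOVL7 read 9.24, 9.69 and 9.40 on the control arrays and 9.35, 9.50 and 9.21 on the knockout arrays, a difference of -0.09 (95% interval -0.42 to 0.24, adjusted p = 0.81). The groups overlapped for each of the 3 elongases. Their intervals ended at 0.15, 0.13 and 0.24, below 0.93, where the interval of SCD begins. That of ELOVL4, an elongase outside the list, ran from 1.04 to 1.57 and overlapped that of SCD. The intervals thus do not set elongases apart from desaturases.

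**Figure D2:**
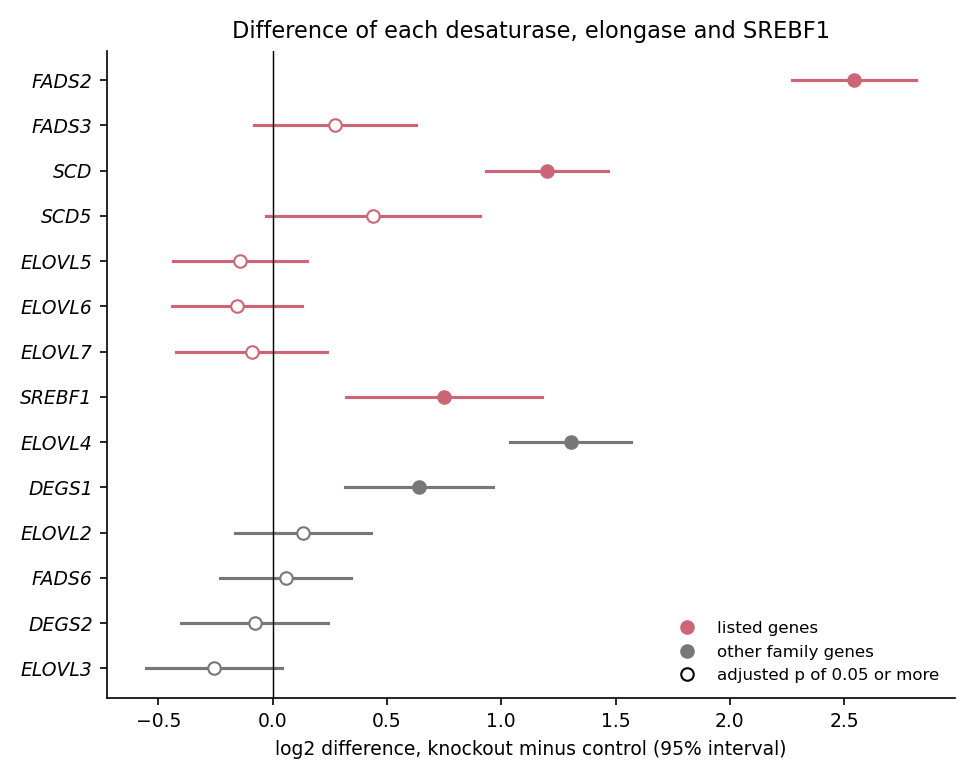
Log2 difference (knockout minus control) of the 8 measured genes (red) and of 6 other desaturase and elongase genes (grey), with 95% intervals from limma; filled points had an adjusted p under 0.05. FADS2 stands at 2.54, ELOVL4 at 1.30 and SCD at 1.2, while the intervals of ELOVL5, ELOVL6 and ELOVL7 span 0.

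Paralogs were compared within arrays, as the log2 signal of one gene minus that of the other, to ask whether they changed by unequal amounts. The FADS2 signal minus the FADS3 signal was 7.20, 7.28 and 6.81 on the control arrays and 9.59, 9.34 and 9.17 on the knockout arrays. The groups lay apart, and the difference grew by 2.27 on the log2 scale, from 7.10 ± 0.25 to 9.37 ± 0.21 (SD, n = 3, exact two-sided permutation test p = 0.10, adjusted p = 0.10 over 2 pairs). For SCD minus SCD5 the values were 4.50, 5.21 and 4.35 on the control arrays and 5.56, 5.56 and 5.23 on the knockout arrays. Here the highest control and the lowest knockout array nearly met, and the difference grew by 0.76, from 4.69 ± 0.46 to 5.45 ± 0.19 (SD, n = 3, exact permutation p = 0.10, adjusted p = 0.10). With 3 arrays against 3, 0.10 is the smallest p this test can give, so neither pair could pass. FADS2 over FADS1, also planned, could not be compared.

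**Figure D3:**
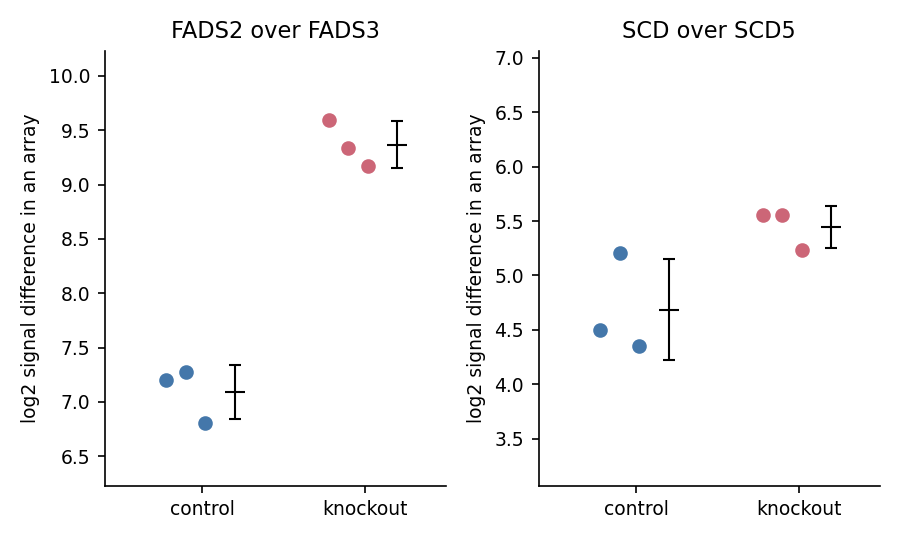
Log2 signal of FADS2 minus FADS3 (left) and of SCD minus SCD5 (right) on each control (blue) and knockout (red) array, with the mean and SD of each group in black; both panels have the same height. The FADS2 over FADS3 values moved from about 7.10 to 9.37, and the SCD over SCD5 values from 4.69 to 5.45 with a control array at 5.21.

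The promoters of the genes that rose are shown beside that of ELOVL5, a measured gene of the pathway that did not pass. The sequences are RefSeq's (GRCh38.p14), 5′ to 3′, and cover the 250 bases before the annotated start; for FADS2, which has windows for different starts, the downstream one is given. Capitals mark matches to the motifs named after them.
FADS2 (chr11:61816154-61816403, plus strand): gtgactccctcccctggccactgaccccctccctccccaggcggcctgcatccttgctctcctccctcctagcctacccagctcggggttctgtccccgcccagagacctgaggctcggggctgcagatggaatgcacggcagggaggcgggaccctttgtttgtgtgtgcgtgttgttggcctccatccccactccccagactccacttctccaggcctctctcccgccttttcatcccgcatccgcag
SCD (chr10:100346983-100347232, plus strand): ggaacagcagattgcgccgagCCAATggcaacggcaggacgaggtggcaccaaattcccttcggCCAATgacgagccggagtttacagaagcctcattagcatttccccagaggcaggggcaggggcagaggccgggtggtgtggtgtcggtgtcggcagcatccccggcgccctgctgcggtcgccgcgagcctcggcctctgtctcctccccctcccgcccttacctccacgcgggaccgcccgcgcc
SREBF1 (chr17:17836987-17837236, minus strand): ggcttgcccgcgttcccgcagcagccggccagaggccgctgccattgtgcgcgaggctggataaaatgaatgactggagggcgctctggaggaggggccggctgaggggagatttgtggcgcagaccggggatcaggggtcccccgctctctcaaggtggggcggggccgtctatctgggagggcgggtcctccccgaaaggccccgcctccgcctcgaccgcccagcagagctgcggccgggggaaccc
ELOVL5 (chr6:53348951-53349200, minus strand): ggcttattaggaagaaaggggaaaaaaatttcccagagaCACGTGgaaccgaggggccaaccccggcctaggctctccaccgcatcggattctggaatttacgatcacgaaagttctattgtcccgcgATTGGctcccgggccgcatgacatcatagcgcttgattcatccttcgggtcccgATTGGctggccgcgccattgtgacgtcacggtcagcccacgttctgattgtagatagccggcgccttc

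Motifs were searched on both strands in 300 bases, the 250 before and 50 after each start, for all 10 genes (11 windows). They were CCAAT, the box bound by the factor NF-Y, CACGTG, an E-box, CACCCCAC, part of a sterol regulatory element, TATAAA, and GGTCANNNTGACC, the palindromic estrogen response element. SCD held 2 CCAAT boxes, starting at -229 and -186 relative to the start, where -1 is the base just before it. The downstream FADS2 window held 1, in its last 50 bases, which are not printed. SREBF1 held none of these motifs. CCAAT also occurred in FADS3, SCD5, ELOVL1 and ELOVL5, and in 34.6% of all 35116 windows. ELOVL5 alone among these genes had a CACGTG, present in 7.26% of all windows. The letters CACCCCAC (2.79% of all windows), TATAAA (11.5%) and GGTCANNNTGACC (0.057%) occurred in none of the 11 windows. No matches overlapped each other, and no motif of this search was common to FADS2, SCD and SREBF1.

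The genes beside FADS2 on chromosome 11 were read next, since FADS1, FADS2 and FADS3 lie in 1 cluster. Of the 10 nearest measured protein-coding genes, 0 were called and their median log2 difference was 0.17. Over all genes tested 8.01% were called, and 14.8% of those above the median brightness. Counts from windows of 10 genes are too small to set a locus apart from these shares. The flanking measured genes were FEN1, a DNA repair nuclease, at -0.34 (adjusted p = 0.14), and FADS3. FADS1, of the same cluster, had no value. MYRF, the largest difference in that window, was dim and stood at 0.56 (adjusted p = 0.058). Around SCD on chromosome 10, 2 of 10 neighbours rose and 1 fell, with a median of -0.10. BLOC1S2, a subunit of a lysosome trafficking complex, rose 1.86-fold (adjusted p = 0.0011), CHUK, an IkB kinase subunit, rose 1.52-fold (adjusted p = 0.018), and NDUFB8, a respiratory chain subunit, fell 1.43-fold (adjusted p = 0.024). The genes that flank SCD directly, PKD2L1 (-0.22) and WNT8B (-0.14), were dim and did not pass. Around SREBF1 on chromosome 17, TOM1L2 rose 1.49-fold (adjusted p = 0.020), 9 of 10 neighbours did not pass, and the median was 0.10; RAI1, on the other side, stood at -0.22.

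CHUK kept its call without control replicate 3 and lost it without any other single array (adjusted p of 0.053 to 0.070). TOM1L2 lost its call without control replicate 2 or any single knockout replicate (adjusted p of 0.052 to 0.087). That of NDUFB8 did not hold when control replicate 1 or 3, or knockout replicate 2 or 3, was dropped (adjusted p of 0.060 to 0.099), or with the replicate number as a block (adjusted p = 0.052). Over all 16 alternatives, the calls of CHUK, TOM1L2 and NDUFB8 held in 8, 9 and 9. Beside the genes that did not pass, SEC31A and TMEM150C flanked SCD5, the first higher (1.63-fold, adjusted p = 0.0076) and the second lower (1.69-fold, adjusted p = 0.046). The call of SEC31A held under 13 of 16 alternatives. TMEM150C lost its call without any 1 array other than control replicate 3 (adjusted p of 0.072 to 0.15). In the window of ELOVL5, CILK1 rose 1.7-fold and GSTA4 fell 1.88-fold, and in that of ELOVL7, PDE4D rose 1.67-fold, PLK2 rose 1.5-fold and ZSWIM6 fell 1.85-fold. PLK2 was not called without any 1 array other than control replicate 3 (adjusted p of 0.053 to 0.12). A second quantile normalization (adjusted p = 0.081) and the replicate block (adjusted p = 0.053) ended its call as well. PDE4D has more than 1 probe set, and their mean differed by 0.23 (adjusted p = 0.35), against 0.74 for the brightest one. Around ELOVL6, 0 of 10 were called.

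**Figure D4:**
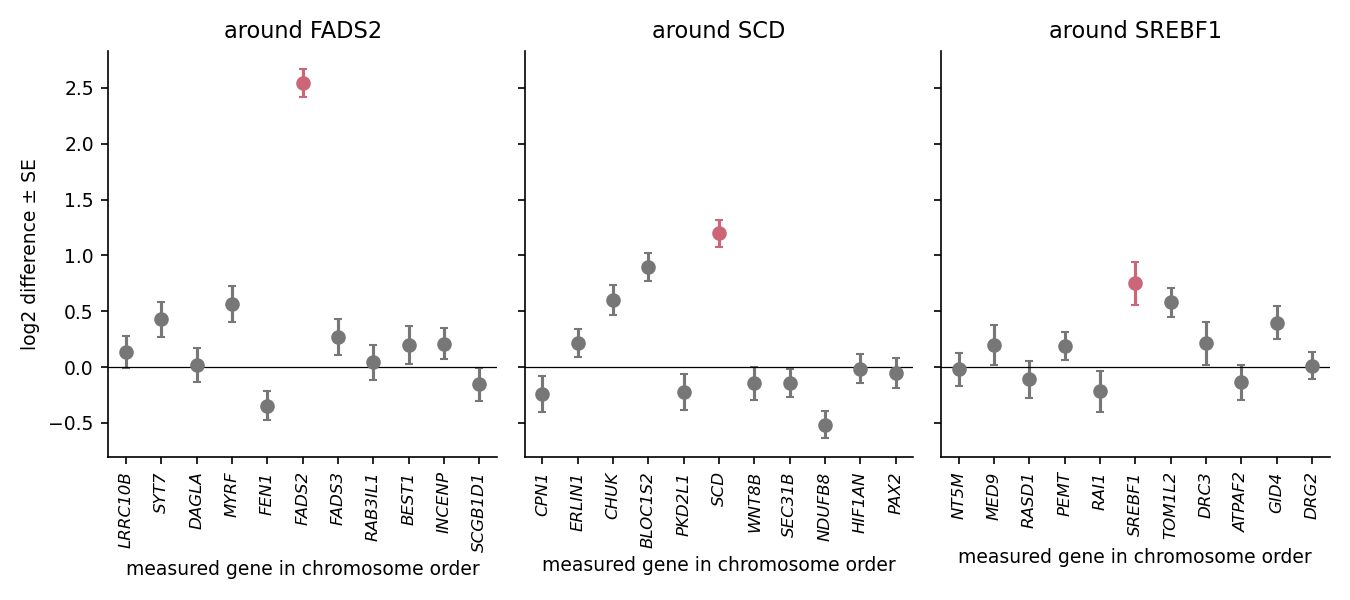
Log2 difference (knockout minus control) with its SE for FADS2, SCD and SREBF1 (red) and for the 5 nearest measured protein-coding genes on each side (grey), in chromosome order. FADS2 stands at 2.54 among measured neighbours between -0.34 and 0.56. FADS1, of the same cluster, has no value and is not shown. BLOC1S2 at 0.90 is the neighbour closest to SCD in size.

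Among called protein-coding genes, those whose pattern over the 6 arrays was most like that of FADS2 were GPX3, a glutathione peroxidase, RARRES1 and PIGR, the polymeric immunoglobulin receptor. Their root mean square differences from FADS2, after each gene's mean was removed, were 0.10, 0.12 and 0.13 log2 units, and they rose 5.87-fold, 6.59-fold and 6.0-fold. For SCD they were SLC50A1, a sugar transporter, BDH1, a ketone body enzyme, and TMC5. These lay 0.033, 0.048 and 0.059 log2 units away, with rises of 2.22-fold, 2.26-fold and 2.37-fold. The search ran over 2205 genes, so the measure picks genes of similar fold with tight groups.

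The rest of the fatty acid pathway was read from 10 lists with 128 genes, 115 of them measured. Of these 115 genes, 7 rose and 2 fell, and their median log2 difference was 0.08. The called share was 7.83%, near the 8.01% of all genes tested. Most of the 115 genes lay above the median brightness. Among all genes above it 14.8% were called, a larger share than in the lists. Without knockout replicate 2 the counts were 4 and 1, and without control replicate 3 they were 6 and 4.

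**Figure D5:**
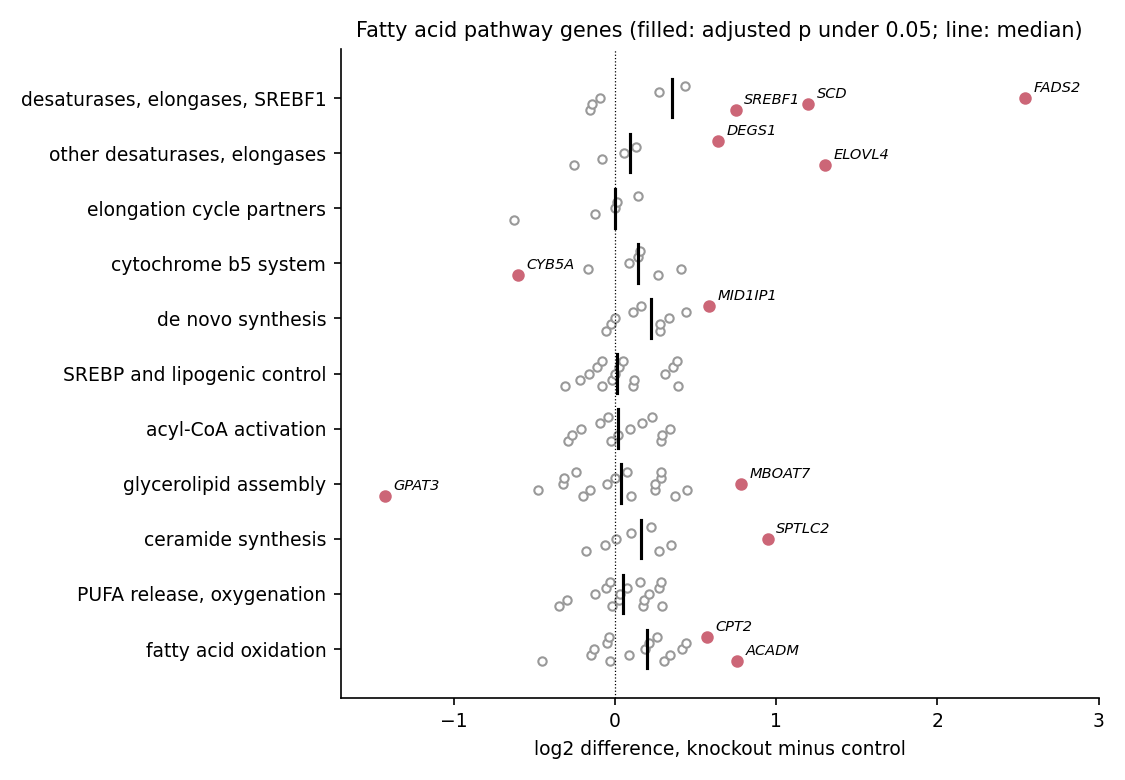
Log2 difference (knockout minus control) of every measured gene in the desaturase, elongase and SREBF1 group and in 10 lists of fatty acid pathway genes; filled and named points had an adjusted p under 0.05 and black lines are medians. Most lists have their median near 0, with single genes such as ELOVL4 at 1.30 and GPAT3 at -1.43 standing away from it.

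Of the 6 other desaturases and elongases, 2 rose and 0 fell. The share called was 8.01% over all genes and 14.8% over those above the median brightness. A list of 6 genes is too small to be set apart from these shares. ELOVL4, the elongase of very long chains, read 8.85, 8.77 and 8.80 on the control arrays and 10.19, 10.05 and 10.09 on the knockout arrays. It rose 2.47-fold (log2 difference 1.30, SE 0.12, adjusted p = 6.0e-05), a call kept under all 16 alternatives. DEGS1, which desaturates dihydroceramide, read 14.63, 14.58 and 14.50 on the control arrays and 15.49, 15.11 and 15.03 on the knockout arrays. It rose 1.56-fold (adjusted p = 0.021), but the call held under only 9 of 16 alternatives. Among the losses were those on dropping control replicate 1 or 3, or knockout replicate 1 or 2 (adjusted p of 0.051 to 0.080). ELOVL2 differed by 0.13, DEGS2 by -0.08, FADS6 by 0.06 and ELOVL3 by -0.26, with adjusted p of 0.33 to 0.87. The last 2 were dim on all arrays, and may not exceed background.

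Of 7 listed genes for the elongation cycle after the ELOVL step, 5 were measured and 0 were called, with a median of 0. Those read were HSD17B12, HACD2, HACD3, HACD4 and TECRL, which was dim, and the rest had no value here. With 8.01% of all genes called, 0 of 5 does not set this list apart. HSD17B12, the ketoacyl-CoA reductase, differed by 0.14 (adjusted p = 0.60). The largest difference was that of HACD4, a dehydratase family member, at -0.62 (adjusted p = 0.099). HACD4 passed without control replicate 3 (adjusted p = 0.045) or knockout replicate 1 (adjusted p = 0.048).

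Of 7 genes of the cytochrome b5 system, which passes electrons to the desaturases, 0 rose and 1 fell. Beside the 8.01% called over all genes, 1 of 7 does not set the list apart. CYB5A, the microsomal cytochrome b5, read 15.20, 15.24 and 15.15 on the control arrays and 14.68, 14.48 and 14.61 on the knockout arrays. All knockout arrays were below all control arrays, a fall of 1.52-fold (log2 difference -0.60, SE 0.12, adjusted p = 0.011). The call held under 13 of 16 alternatives. It was lost without knockout replicate 2 (adjusted p = 0.062), with all probe sets tested (adjusted p = 0.081) and in limma's treat (adjusted p = 0.18). CYB5R3, the reductase that feeds cytochrome b5, differed by 0.41 (adjusted p = 0.063).

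De novo synthesis, which supplies the palmitate that SCD and ELOVL6 use, held 1 rise and 0 falls among 10 measured genes, with a median of 0.22. That count lies near the 8.01% called over all genes. The gene that rose was MID1IP1, an activator of acetyl-CoA carboxylase, at 1.5-fold (adjusted p = 0.023), called under 8 of 16 alternatives. Dropping control replicate 1 or 2, or knockout replicate 2 or 3, ended its call (adjusted p of 0.052 to 0.11), as did repeated quantile normalization (adjusted p = 0.051). The core enzymes were named for their place in the pathway after their values were seen. FASN, fatty acid synthase, read 13.42, 13.45 and 13.43 on the control arrays and 13.67, 13.62 and 14.00 on the knockout arrays, a difference of 0.33 (95% interval 0.03 to 0.63, adjusted p = 0.19). ACLY, ATP citrate lyase, differed by 0.16 (adjusted p = 0.55) and ACACA, acetyl-CoA carboxylase, by -0.06 (adjusted p = 0.86).

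Among 16 measured genes of SREBP processing and lipogenic control, 0 passed, and the median was 0.01. Since 8.01% of all genes were called, 0 of 16 is too few genes to set this list apart. The largest difference was that of MLXIPL, which encodes the carbohydrate-responsive factor ChREBP, at 0.39 (adjusted p = 0.12). It was dim in both groups. SREBF2, the paralog that drives cholesterol synthesis, differed by 0.02 (adjusted p = 0.97). The escort protein gene SCAP differed by -0.31 (adjusted p = 0.20), and INSIG1, which retains SREBP in the endoplasmic reticulum, by 0.11 (adjusted p = 0.76). These 3 were also named after their values were seen.

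The next lists hold genes that use the products. Of 18 glycerolipid genes, 1 rose and 1 fell, counts that do not stand apart from the 8.01% called over all genes. GPAT3, a glycerol-3-phosphate acyltransferase, read 9.60, 9.52 and 9.93 on the control arrays and 8.66, 8.22 and 7.90 on the knockout arrays, a fall of 2.69-fold (adjusted p = 9.0e-04). MBOAT7, which loads arachidonate into phosphatidylinositol, read 8.54, 8.18 and 8.52 on the control arrays and 9.26, 9.03 and 9.29 on the knockout arrays, a rise of 1.72-fold (adjusted p = 0.0065). The fall of GPAT3 missed the threshold in an unmoderated model (adjusted p = 0.085), and the rise of MBOAT7 missed it there (adjusted p = 0.090), with all probe sets tested (adjusted p = 0.052) and in limma's treat (adjusted p = 0.064). Without control replicate 3, MBOAT1 also passed as lower (-0.62, adjusted p = 0.041).

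Of 8 ceramide synthesis genes, SPTLC2 rose and the other 7 did not pass. With 8.01% called over all genes, 1 of 8 does not set the list apart. SPTLC2, a subunit of serine palmitoyltransferase, had a log2 signal of 12.71 ± 0.12 in control and 13.66 ± 0.12 in knockout cells (SD, n = 3). The rise was 1.93-fold (adjusted p = 0.0010), and the call held under all 16 alternatives. Of 16 fatty acid oxidation genes, 2 rose and 0 fell, which is also too few to stand apart from that share. ACADM, the medium-chain acyl-CoA dehydrogenase, rose 1.69-fold (adjusted p = 0.0044), a call that held under 15 of 16 alternatives. CPT2, a carnitine palmitoyltransferase, rose 1.48-fold (adjusted p = 0.014), a call that held under 12 of 16. Among its losses were those on dropping knockout replicate 1 or 2 (adjusted p of 0.054 to 0.060). SLC25A20, the carnitine carrier, passed as lower after repeated quantile normalization (-0.50, adjusted p = 0.032).

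For activation of fatty acids and for release and oxygenation of polyunsaturated ones, 0 of 13 and 0 of 16 genes passed. Against 8.01% over all genes, lists of this size are too small for these counts to set them apart. The largest differences were those of ACSL5, an acyl-CoA synthetase that was dim in both groups (0.34, adjusted p = 0.38), and of TBXAS1, thromboxane synthase (-0.35, adjusted p = 0.25).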

How the data were processed

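The authors deposited log2 signal values of 6 arrays. The submitters' processing notes name RMA and Transcriptome Analysis Console. For versions, settings and the array's genome build, the answer is not given in the sources used here. Normalization by RMA removes differences shared by a whole array. The log2 scale was inferred from values between 1.92 and 19.92, of which 0.567% exceed 16. Scanner files were not used here.

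The table holds 134748 probe sets: 35528 annotated to a single symbol, 1119 to more than 1 and 98101 unnamed here. Symbols were checked by Entrez ID against RefSeq (24360 genes matched, GRCh38.p14), used for names, gene types, gene order and promoters, which matched all 10 genes. Probe sets with several symbols named no gene. No filter on brightness was used.

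Groups were compared across all genes with limma 3.58.1 in R 4.3.3 (lmFit, eBayes, two-sided, Benjamini-Hochberg at 0.05), with 4 residual and 6.84 prior degrees of freedom. The fit was tested on simulated data. The number of arrays limits precision. Members and lists were chosen with earlier results of these data known. Genes named were all members and, per list, up to 3 called each way or else the largest difference, the called or flanking neighbours, and the 3 most similar genes. The alternatives for paralogs, neighbours, called pathway genes, and lists without 1 array were chosen after seeing the data.

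Replicate numbers are shared by the groups, but same-numbered arrays did not deviate together (correlations of -0.030 to -0.010), so the numbers were not treated as pairs.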

Additional observations from a re-analysis of the deposited data

How the results depend on the processing

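The log2 differences of FADS2, FADS3, SCD, SCD5, ELOVL5 and ELOVL6 kept their direction and their side of the threshold under all 16 alternatives. ELOVL7, not called under any, ranged from -0.19 to 0.03 when 1 array was left out, turning above 0 without control replicate 2 (adjusted p = 0.95). The call of SREBF1 was lost with all probe sets tested (0.75, adjusted p = 0.18), after repeated quantile normalization (0.67), with array medians set equal (0.72), in an unmoderated linear model (0.75, adjusted p = 0.26) and in treat against a fold change of 1.2 (0.75, adjusted p = 0.27). Without 1 array the SREBF1 value ranged from 0.53 to 0.94. The cause was not tested, except that testing all probe sets adjusts over more tests. The replicate block left 3 called genes of the 8, with SREBF1 at 0.75 (adjusted p = 0.016), and 2303 called over all genes, and kept the 7 rises and 2 falls of the pathway lists, but ended the calls of the neighbours NDUFB8 and PLK2. Of 21 other called genes (pathway genes, neighbours and KRT19), 11 lost the call with all probe sets tested, 10 in the unmoderated model, 12 with treat, 2 after repeated quantile normalization, 1 with probe sets averaged and 2 to 9 without 1 array.

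Over all genes, 2691 were called, 1614 higher and 1077 lower. The count was 1560 (890 and 670) with all probe sets tested, 1086 (649 and 437) in the unmoderated model and 1081 (636 and 445) with treat. Leaving out 1 array gave 1668 to 2266 genes, 1008 to 1378 higher and 660 to 925 lower. Repeated quantile normalization gave 1251 higher and 1306 lower genes, and equal array medians gave 1434 and 1230, so the balance between directions moved with the scaling. Over the pathway lists, leaving out 1 array gave 4 to 6 rises and 1 to 4 falls. With 10 neighbours on each side, the median around FADS3 moved from 0.20 to 0.03. FADS2 against FADS1 was not run, since FADS1 had no value.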
